A study of Mus musculus with 12 samples.

Results

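The genes described here encode the machinery between a Gs-coupled receptor and cAMP-dependent protein kinase (PKA) in mouse bone marrow-derived macrophages (BMDMs): the Gs alpha subunit (*Gnas*), 3 adenylyl cyclases (*Adcy3*, *Adcy7*, *Adcy9*), the catalytic (*Prkaca*, *Prkacb*) and regulatory (*Prkar1a*, *Prkar2a*, *Prkar2b*) subunits of PKA, and the anchoring protein *Akap12*. They were chosen by symbol, with earlier results of these data known. The symbols were matched to the Ensembl identifiers of the count table through GENCODE M21. The table listed 53379 genes, of which 12386 had enough counts to be tested, and all 10 chosen genes were among them. The marrow of 4 adult male C57BL/6J mice was differentiated in medium conditioned by L929 cells. From each mouse 1 culture stayed untreated and others received 1 μM fenoterol, an agonist selective for the beta-2 adrenergic receptor (B2AR), for either 1 h or 4 h, so that each of the 3 groups held 4 libraries. No group carried a genetic change, and the labels give 1 untreated group for both time points, so the comparisons at 1 h and at 4 h share their control libraries. Each library is a bulk culture of 1 mouse.

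In this pathway an occupied receptor loads the Gs alpha subunit with GTP, and Gs then activates adenylyl cyclases, membrane enzymes that make cAMP from ATP. In the resting PKA holoenzyme a dimer of regulatory subunits holds a pair of catalytic subunits inactive. When cAMP binds the regulatory subunits, active catalytic subunits are set free and phosphorylate many proteins, among them the transcription factor CREB, which binds the cAMP response element TGACGTCA. A-kinase anchoring proteins (AKAPs) hold the regulatory subunits near particular membranes and substrates. In macrophages a rise in cAMP is known to dampen the production of inflammatory cytokines.

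A library held 14580533 to 24153284 counts. All 9 macrophage markers examined had more than 10 normalized counts in every library, and their summed level ranged over 751339 to 787133 (untreated), 726740 to 854606 (1 h of fenoterol) and 703444 to 791170 (4 h of fenoterol). That sum is mostly *Lyz2*, with a mean of 488942 normalized counts in untreated libraries. Single markers did move: 2 of the 9 passed the test at 1 h (1 higher, 1 lower, against 20.1% of all genes) and 7 at 4 h (3 higher, 4 lower, against 40%). *Cd14* was higher by 2.39 on the log2 scale at 1 h and 2.52 at 4 h (edgeR adjusted p = 3.45e-11 and 3.84e-11), and *Mertk* was at -0.20 and -1.51 (edgeR adjusted p = 0.0153 and 5.13e-11). The part of these markers in the results below was not tested. Fibroblast markers summed to 460 to 1439, 716 to 1270 and 511 to 1393 normalized counts in the same order, and neutrophil markers to 500 to 998, 524 to 913 and 507 to 871. None of the 4 fibroblast and 5 neutrophil markers tested changed in any of the 3 comparisons by edgeR's quasi-likelihood test. Summed markers reached at most 4.82 normalized counts for T and NK cells, 3.08 for mast cells, 36.6 for dendritic cells and 229 for B cells in any library. The erythroid and megakaryocyte list summed to 6942 to 10830 (untreated), 9214 to 12271 (1 h) and 11455 to 13719 (4 h) normalized counts. Nearly all of that was *Pf4*, with a mean of 8953 normalized counts in untreated libraries. In this list *Hbb-bs* and *Hba-a1* were at 0, and *Pf4* was higher at 4 h (log2 fold change 0.47, edgeR adjusted p = 0.00676). *Nr4a1*, a known CREB target, had a mean of 131 normalized counts untreated, 4627 after 1 h of fenoterol and 263 after 4 h.

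Normalized counts are counts scaled by the TMM factors to the mean library size. Fold changes are on the log2 scale with their standard error (SE) from edgeR's quasi-likelihood fit over all 12 libraries, p-values are adjusted by the Benjamini-Hochberg method over the 12386 genes tested, and genes with an adjusted p under 0.05 are counted as changed. At 1 h, 2 of the 10 genes changed, and both were regulatory subunits that rose, *Prkar1a* and *Prkar2a*. Of all genes tested, 20.1% changed at 1 h (10% higher, 10.1% lower), so the share of the chosen genes, 20.0%, was near the background. At 4 h, 7 of the 10 changed against 40% of all genes (19.7% higher, 20.4% lower). All 3 regulatory subunits and the catalytic subunit *Prkaca* were higher, while *Adcy3*, *Adcy9* and the catalytic subunit *Prkacb* were lower. Between 4 h and 1 h, 7 of the 10 differed against 38.5% of all genes (18.7% higher, 19.8% lower): *Prkar1a* and *Prkar2b* were higher at 4 h, and *Gnas*, *Adcy3*, *Adcy9*, *Prkacb* and *Prkar2a* were lower. The median log2 fold change of the 10 genes was 0.06 at 1 h, 0.12 at 4 h and -0.09 between the time points, beside medians of -0.005, 0.004 and 0.007 over all genes tested. Scaling by library size alone moved the number of rises from 1242 of 2493 changed genes to 949 of 2918 at 1 h, and from 2320 of 4773 to 3503 of 5333 between the time points. In bulk RNA, fewer cells of a type and less RNA per cell cannot be told apart.

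**Figure D1:**
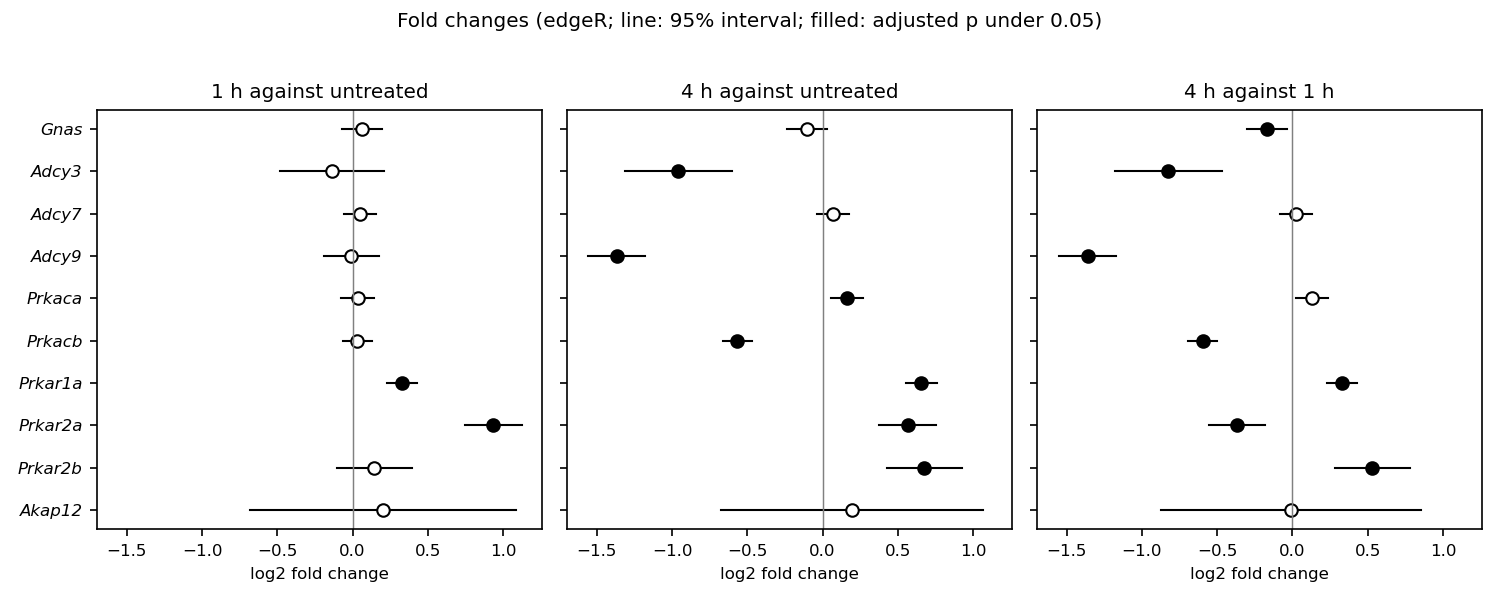
Log2 fold changes of the 10 genes at 1 h and at 4 h against untreated BMDMs and at 4 h against 1 h, with lines for 95% confidence intervals from edgeR's fit over 12 libraries and filled points for an adjusted p under 0.05. The regulatory subunits lie to the right of 0 at 4 h, with *Prkar2a* farther right at 1 h (0.94) than at 4 h (0.57), while *Adcy9* (-1.37) and *Adcy3* (-0.96) lie farthest to the left at 4 h.

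Levels of different genes are compared only per length, as reads per kilobase of exon scaled for library size (RPKM). The length is the union of exon bases over all annotated transcripts of a gene. It was 11186 bases for *Gnas* (24 transcripts), 6733 for *Adcy7* (6), 8772 for *Prkacb* (8) and 2488 for *Prkaca* (2). Which of these exons BMDMs use was not examined, so the order of genes below depends on this length. In untreated BMDMs the mean RPKM was highest for *Adcy7* (88.1), followed by *Prkar1a* (76.3), *Gnas* (65.1), *Prkaca* (40.01), *Prkacb* (36.0), *Adcy9* (8.97), *Prkar2a* (8.76), *Prkar2b* (6.82), *Adcy3* (3.14) and *Akap12* (0.123). Among neighbours in this order only the ranges of *Adcy9* and *Prkar2a* overlapped over the 4 libraries. By this measure the cyclase mRNA before treatment was mainly *Adcy7* and the regulatory mRNA mainly *Prkar1a*. The catalytic mRNA was divided nearly evenly between *Prkaca* and *Prkacb*, a split that also depends on the length used.

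The promoters of the 6 genes with the largest changes against untreated BMDMs at either time are shown because the pathway ends on a DNA element. The windows are RefSeq's for GRCm38.p6, from 250 bases before to 50 bases after each annotated start, and 9 of the 10 genes had windows, 24 in all. Printed, 5′ to 3′ on the strand of the gene, are the bases of 1 window per gene that lie before the start site and in no GENCODE exon, and capitals mark the full element TGACGTCA or its 5-base core TGACG, which reads CGTCA when it lies on the other strand. *Prkar1a* is from chr11:109650699-109650920 (+), *Prkar2a* from chr9:108691893-108692143 (+), which also holds the base of the start site, *Prkar2b* from chr12:32061297-32061527 (-), *Prkacb* from chr3:146812991-146813196 (-), *Adcy9* from chr16:4420499-4420748 (-) and *Adcy3* from chr12:4133903-4134146 (+). For *Prkar1a* and *Prkacb* a window with a match was printed, and 3 of the 6 *Prkar1a* windows and 2 of the 3 *Prkacb* windows held none. The windows of *Adcy3* and *Prkar2b* held no match and have no capitals.
*Prkar1a*: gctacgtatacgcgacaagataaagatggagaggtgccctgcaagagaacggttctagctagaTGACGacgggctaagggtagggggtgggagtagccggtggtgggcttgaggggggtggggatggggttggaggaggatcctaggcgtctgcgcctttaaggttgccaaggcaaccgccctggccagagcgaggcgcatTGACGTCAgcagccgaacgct
*Prkar2a*: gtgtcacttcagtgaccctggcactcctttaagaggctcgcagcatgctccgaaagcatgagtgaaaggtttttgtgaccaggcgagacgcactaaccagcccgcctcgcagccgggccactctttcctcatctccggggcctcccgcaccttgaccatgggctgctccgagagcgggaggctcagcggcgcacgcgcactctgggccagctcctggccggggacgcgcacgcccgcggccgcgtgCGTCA
*Prkar2b*: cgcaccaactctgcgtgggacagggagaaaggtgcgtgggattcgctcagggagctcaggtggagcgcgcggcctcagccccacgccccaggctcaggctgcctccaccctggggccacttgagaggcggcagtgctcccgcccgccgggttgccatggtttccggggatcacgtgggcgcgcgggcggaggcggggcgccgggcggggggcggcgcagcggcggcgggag
*Prkacb*: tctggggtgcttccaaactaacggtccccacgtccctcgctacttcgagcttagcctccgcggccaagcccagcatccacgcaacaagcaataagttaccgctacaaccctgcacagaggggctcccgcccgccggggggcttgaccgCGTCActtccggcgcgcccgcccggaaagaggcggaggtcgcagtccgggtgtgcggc
*Adcy9*: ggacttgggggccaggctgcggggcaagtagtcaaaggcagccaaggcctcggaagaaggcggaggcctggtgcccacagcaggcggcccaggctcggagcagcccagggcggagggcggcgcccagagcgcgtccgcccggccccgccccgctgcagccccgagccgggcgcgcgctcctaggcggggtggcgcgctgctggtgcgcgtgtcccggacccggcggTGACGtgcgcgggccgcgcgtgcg
*Adcy3*: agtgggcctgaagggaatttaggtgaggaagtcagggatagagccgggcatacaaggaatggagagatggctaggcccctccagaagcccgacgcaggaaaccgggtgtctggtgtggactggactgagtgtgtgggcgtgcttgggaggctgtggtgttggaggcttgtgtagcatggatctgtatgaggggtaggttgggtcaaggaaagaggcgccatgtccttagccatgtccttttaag

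The full element was present in 2 of the 24 windows, and both are windows of *Prkar1a* that overlap and hold the same copy. It begins at position -49 from the start site at 109650949. Over all 32851 RefSeq windows of this length, 588 (1.79%) held it. The 5-base core on either strand, which also counts every full element, was present in 11 of the 24 windows, against 6837 (20.8%) of all windows. These 11 are not all separate matches, since a pair of *Gnas* windows and the same pair of *Prkar1a* windows overlap and hold the same copies. It was found for 7 of the 9 genes, in *Gnas*, *Adcy7*, *Adcy9*, *Prkaca*, *Prkacb*, *Prkar1a* and *Prkar2a*, and these letters were not in the windows of *Adcy3* and *Prkar2b*. Over all genes with windows, 6228 of 27025 (23.0%) held it in at least 1, while the 9 genes had 24 windows among them and all genes 32851. Genes with the core thus included some that rose, some that fell and *Adcy7*, for which no change was detected. A match describes the letters of the window and not binding.

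*Gnas* (ENSMUSG00000027523, chr2:174284320-174346744, + strand, GRCm38) encodes the Gs alpha subunit and, from other promoters of the same imprinted locus, further proteins that a count per gene does not separate. Untreated libraries held 14962, 14131, 14742 and 13302 normalized counts in mice 1 to 4. The values were 15912, 14512, 15135 and 14203 at 1 h and 14308, 12835, 13832 and 12149 at 4 h. The 3 groups overlapped, although each mouse was higher at 1 h and lower at 4 h than its own untreated library. Neither difference from untreated BMDMs passed the test, with 0.06 (SE 0.06, 95% interval -0.07 to 0.20, adjusted p = 0.545) at 1 h and -0.11 (SE 0.06, 95% interval -0.24 to 0.03, adjusted p = 0.202) at 4 h by edgeR's quasi-likelihood test. With the mouse as a block, the 4 h difference of *Gnas* passed at -0.11 (adjusted p = 0.0363). *Gnas* was lower at 4 h than at 1 h by a small margin (log2 difference -0.17, SE 0.06, edgeR adjusted p = 0.0433). That call was lost when library size alone scaled the counts (-0.08, adjusted p = 0.311) and in 6 of 12 edgeR fits that left out 1 library, which were those without mouse 1, 2 or 3 at 1 h, mouse 2 or 4 at 4 h, or untreated mouse 2 (adjusted p = 0.0544 to 0.128). On the other strand *Nespas* and *Gm20721* overlap 22.0% of the *Gnas* exon bases, and they held 9 and 122 counts beside 169679 of *Gnas* over the 12 libraries.

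Among the cyclases, *Adcy7* (ENSMUSG00000031659, chr8:88272403-88329962, + strand) encodes an isoform that is prominent in blood cells. It held 12716, 11497, 11113 and 11192 normalized counts in untreated libraries, 11974, 12003, 12092 and 12157 at 1 h, and 12324, 11978, 12590 and 12032 at 4 h. The groups overlapped at both times. By edgeR's quasi-likelihood test the differences were 0.05 (95% interval -0.05 to 0.16, adjusted p = 0.543) at 1 h and 0.07 (95% interval -0.03 to 0.18, adjusted p = 0.272) at 4 h, so rises above 0.18 and falls beyond -0.05 lie outside both intervals.

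*Adcy9* (ENSMUSG00000005580, chr16:4287529-4420498, - strand) encodes a cyclase that is widely expressed and little affected by forskolin, the plant compound that activates the other membrane cyclases. Untreated libraries held 922, 1030.4, 774 and 930.2 normalized counts, and libraries at 1 h held 841, 945, 874 and 973. At 4 h the values were 320.1, 360.1, 339 and 392. The untreated and 1 h values were interleaved, and every 4 h value lay below all of them. At 1 h the difference was -0.01 (95% interval -0.19 to 0.18, edgeR adjusted p = 0.972), whereas at 4 h *Adcy9* fell 2.58-fold (log2 fold change -1.37, SE 0.09, edgeR adjusted p = 1.79e-08). The fall within a mouse ranged from -1.52 to -1.19, and the difference between 4 h and 1 h was -1.36 (SE 0.09, edgeR adjusted p = 3.06e-08). Of the 10 genes, *Adcy9* changed most at 4 h.

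*Adcy3* (ENSMUSG00000020654, chr12:4133103-4213525, + strand) encodes a cyclase best known from the cilia of olfactory neurons. Untreated libraries of mice 1 to 4 held 428, 379, 409.9 and 323 normalized counts. The values were 384, 363, 399 and 258 at 1 h and 229, 198, 229 and 140 at 4 h. Mouse 4 was lowest in each group, and the 4 h values lay below every untreated and 1 h value. *Adcy3* did not pass the test at 1 h (-0.13, 95% interval -0.48 to 0.21, edgeR adjusted p = 0.648), although each mouse was below its own untreated library by then (-0.32 to -0.04 on the log2 scale), and fell 1.94-fold at 4 h (log2 fold change -0.96, SE 0.17, edgeR adjusted p = 0.000301). Between 4 h and 1 h the difference was -0.82 (SE 0.17, edgeR adjusted p = 0.00123). *Cenpo*, on the other strand, overlaps 22.1% of the *Adcy3* exon bases and held 3849 counts over the 12 libraries beside 3693 of *Adcy3*. Since the strand option of the counting is not stated, reads of this overlap cannot be told apart, and the *Adcy3* values carry that uncertainty. *Cenpo* held 1452 counts in untreated libraries, 1152 at 1 h and 1245 at 4 h.

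Summed over the 3 cyclases the level per length was 100.2 ± 6.17 RPKM (SD, n = 4) before treatment, 103 ± 0.717 after 1 h of fenoterol and 97.7 ± 2.19 after 4 h. The sum thus moved little while its make-up shifted at 4 h: *Adcy7* made up 87.9% ± 0.785 of it in untreated BMDMs and 94.8% ± 0.119 at 4 h. *Adcy9* made up 8.96% ± 0.981 and 3.55% ± 0.370, and *Adcy3* 3.14% ± 0.325 and 1.66% ± 0.329. These shares, and those of the PKA subunits below, describe mRNA per length and were not tested.

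**Figure D2:**
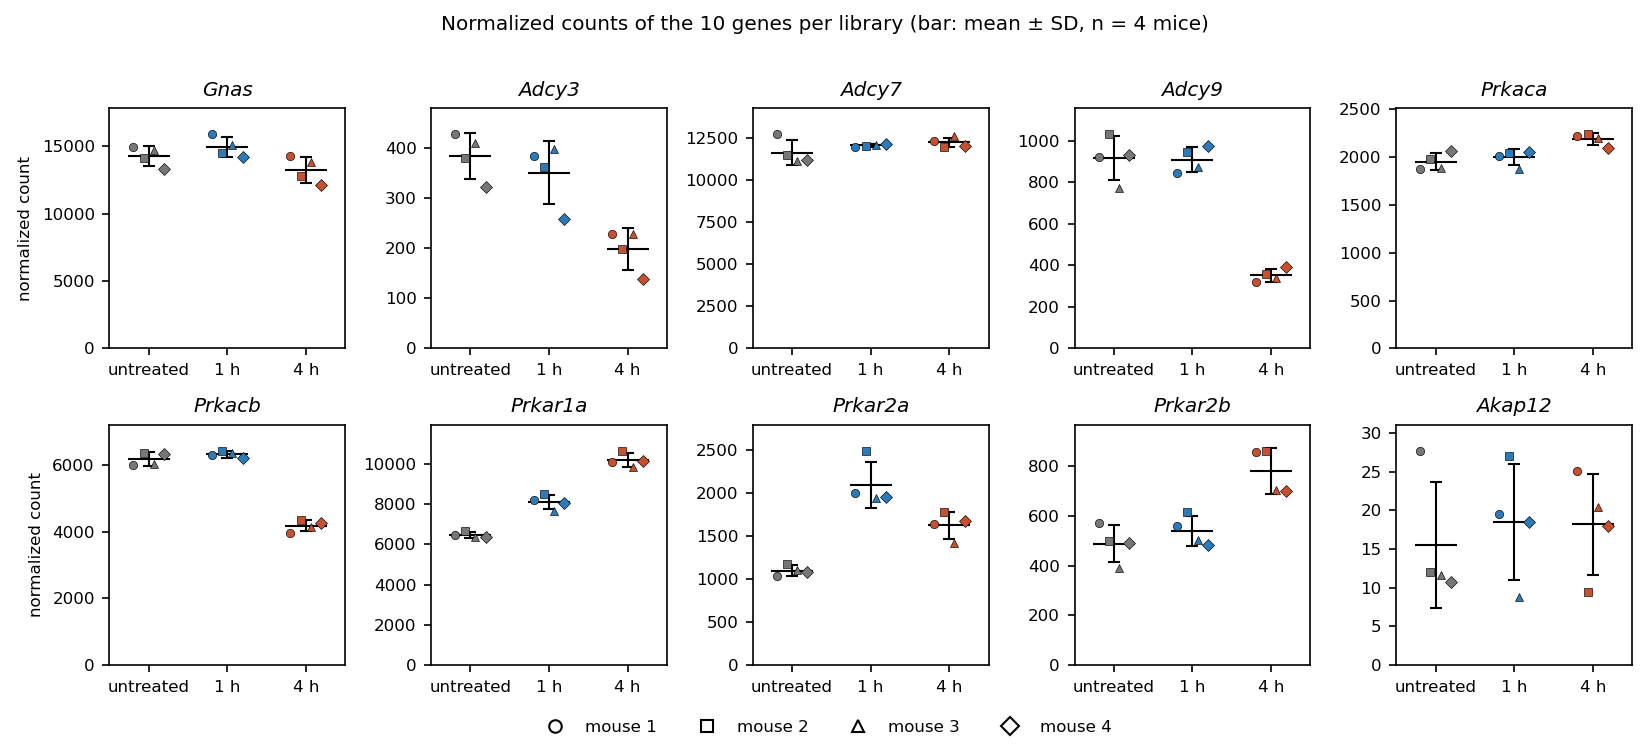
Normalized counts of the 10 genes in each of the 12 libraries, by group, with 1 symbol per mouse and bars for the mean and SD (n = 4); each panel has its own linear axis from 0. *Prkar1a* climbs from a mean of 6463 to 8127 at 1 h and 10193 at 4 h, *Prkar2a* peaks at 1 h, and the 4 h values of *Adcy3*, *Adcy9* and *Prkacb* lie below all others.

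All 3 regulatory subunits rose by 4 h. *Prkar1a* (ENSMUSG00000020612, chr11:109649405-109669656, + strand) encodes RI alpha, the regulatory subunit of the type I holoenzyme, which is mostly cytosolic. Untreated libraries held 6461, 6649, 6388 and 6355 normalized counts. At 1 h the values were 8212, 8530.0, 7679.7 and 8085, and at 4 h they were 10083, 10665, 9872 and 10149.7. None of the 3 groups overlapped, and all 4 mice moved in the same order. The gain was 25.7% at 1 h (log2 fold change 0.33, SE 0.05, edgeR adjusted p = 0.000112) and 57.7% at 4 h (0.66, SE 0.05, edgeR adjusted p = 4.42e-08). From 1 h to 4 h *Prkar1a* rose again by 0.33 (SE 0.05, edgeR adjusted p = 7.08e-05). The promoter window of this gene printed above holds the full element, which most other windows of the gene lack. Any part of that element in the rise was not tested.

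*Prkar2a* (ENSMUSG00000032601, chr9:108689314-108750436, + strand) encodes RII alpha, a subunit of the type II holoenzyme that AKAPs tether. In untreated libraries it held 1029, 1179, 1099.6 and 1077 normalized counts. The values were 2000.4, 2492, 1943 and 1947 at 1 h and 1634, 1776, 1412 and 1669 at 4 h. The groups did not overlap, the 1 h values were highest, and mouse 2 stood above the other 3 mice at 1 h. *Prkar2a* rose 1.91-fold at 1 h (log2 fold change 0.94, SE 0.09, edgeR adjusted p = 1.81e-06) and was 1.48-fold above untreated BMDMs at 4 h (0.57, SE 0.09, edgeR adjusted p = 0.000117). From 1 h to 4 h it fell by 0.37 on the log2 scale (SE 0.09, edgeR adjusted p = 0.00381), in all 4 mice. Without mouse 2 at 1 h the rise was 0.84 (edgeR adjusted p = 1.79e-06) and the later difference -0.28 (edgeR adjusted p = 0.0101). At 1 h *Prkar2a* had the largest change among the 10 genes.

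*Prkar2b* (ENSMUSG00000002997, chr12:31958476-32061296, - strand) encodes RII beta, the form that predominates in fat and brain. Untreated libraries of mice 1 to 4 held 572, 499.8, 389.7 and 491 normalized counts, those at 1 h held 559, 618, 502 and 483, and those at 4 h held 859, 863, 706 and 699. Untreated and 1 h values overlapped, and the 4 h values lay above both. The difference was 0.15 at 1 h (95% interval -0.11 to 0.40, edgeR adjusted p = 0.459), and *Prkar2b* rose 1.60-fold at 4 h (log2 fold change 0.68, SE 0.12, edgeR adjusted p = 0.000277). It was also higher at 4 h than at 1 h (0.53, SE 0.12, edgeR adjusted p = 0.00210). The 3 regulatory genes therefore followed different courses: *Prkar1a* stepped up at both times, *Prkar2a* was highest at 1 h, and *Prkar2b* rose at 4 h.

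The catalytic subunits moved in opposite directions at 4 h. *Prkacb* (ENSMUSG00000005034, chr3:146729574-146812990, - strand) encodes C beta. Untreated libraries held 6004.5, 6369, 6022 and 6347 normalized counts, libraries at 1 h held 6296, 6431, 6351 and 6204, and libraries at 4 h held 3973, 4351, 4133 and 4256. The 4 h values were below all 8 others, which overlapped. At 1 h the difference was 0.03 (95% interval -0.07 to 0.13, edgeR adjusted p = 0.713), and at 4 h *Prkacb* fell by 32.4% (log2 fold change -0.57, SE 0.05, edgeR adjusted p = 1.46e-07). Against 1 h the 4 h difference was -0.60 (SE 0.05, edgeR adjusted p = 1.32e-07).

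*Prkaca* (ENSMUSG00000005469, chr8:83972993-83996443, + strand) encodes C alpha, the most widely expressed catalytic subunit. It held 1879, 1980.4, 1889 and 2062 normalized counts in untreated libraries, 2015, 2046, 1874 and 2056 at 1 h and 2216, 2239, 2198 and 2092 at 4 h. The 4 h libraries were all above the others, the closest pair being mouse 4 at 4 h and untreated mouse 4. *Prkaca* did not pass the test at 1 h (0.03, 95% interval -0.07 to 0.14, edgeR adjusted p = 0.729) and was 12.0% higher at 4 h (log2 fold change 0.16, SE 0.05, edgeR adjusted p = 0.0175). The 4 h call was lost without untreated mouse 1 (0.14, edgeR adjusted p = 0.0555) and without untreated mouse 3 (0.14, edgeR adjusted p = 0.0710). Between 4 h and 1 h the difference of 0.13 missed the threshold (SE 0.05, edgeR adjusted p = 0.0536) and passed it with the mouse as a block (0.13, adjusted p = 0.0394). A pseudogene, *Prkaca-ps1*, shares 0.328% of the 50-base stretches of *Prkaca* and held 2 counts in all.

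Per length, the 3 regulatory genes summed to 91.9 ± 2.34 RPKM (SD, n = 4) before treatment, 120.2 ± 6.76 after 1 h of fenoterol and 144 ± 5.98 after 4 h. The 2 catalytic genes summed to 76.0 ± 2.86, 77.7 ± 1.69 and 69.1 ± 1.52 RPKM. Their ratio, catalytic to regulatory, was 0.827 ± 0.0341 in untreated libraries (0.794 to 0.875), 0.647 ± 0.0241 at 1 h (0.614 to 0.666) and 0.480 ± 0.0151 at 4 h (0.468 to 0.502), and the 3 groups did not overlap. At 1 h the lower ratio went with more regulatory mRNA, and at 4 h with more regulatory and less *Prkacb* mRNA. The share of *Prkacb* in the catalytic sum was 47.3% ± 0.492 in untreated libraries, 47.3% ± 1.22 at 1 h and 35.2% ± 1.22 at 4 h. Among the regulatory genes, *Prkar2a* made up 9.54% ± 0.462 in untreated libraries, 13.9% ± 1.03 at 1 h and 8.99% ± 0.537 at 4 h, and *Prkar1a* remained the main form throughout (83.0%, 79.8% and 83.5%). These are ratios of mRNA per union of exon bases, so their size depends on that length, and protein was not measured in these libraries.

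**Figure D3:**
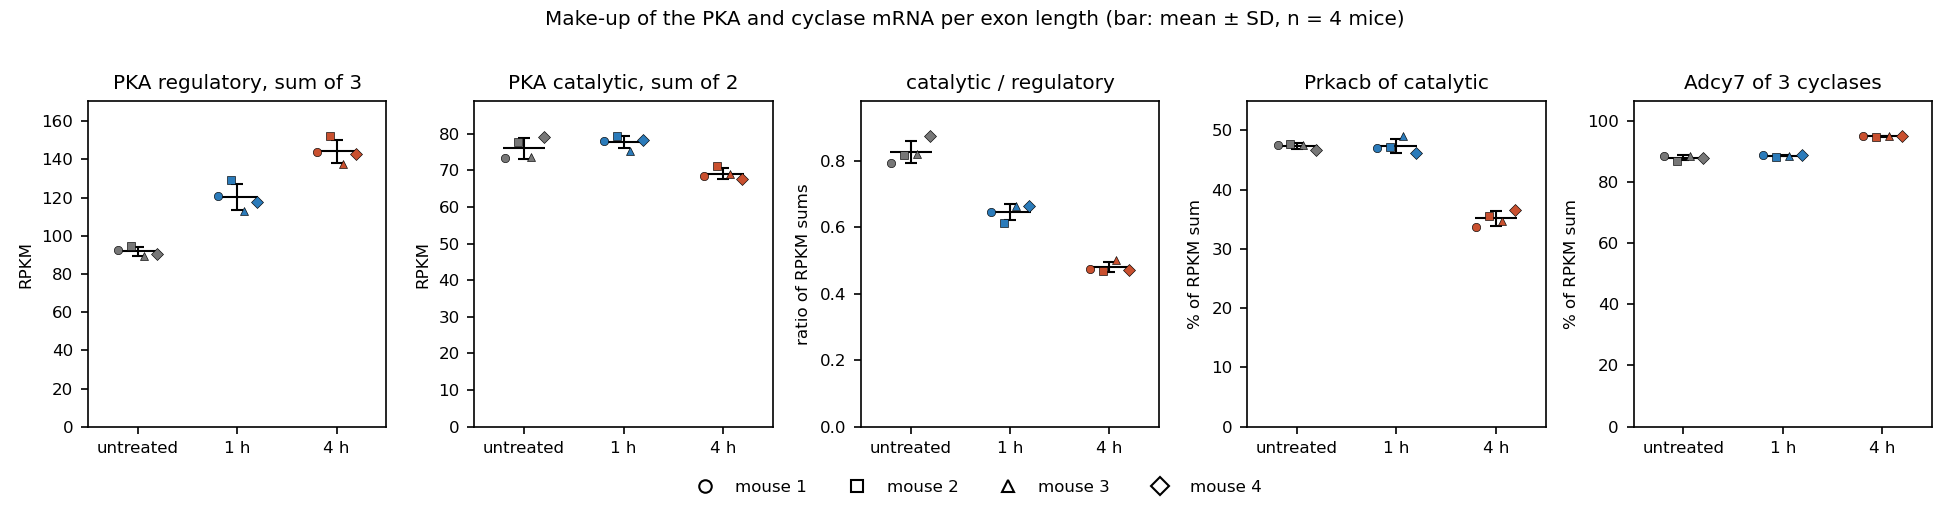
Summed RPKM of the regulatory and catalytic genes, their ratio, the share of *Prkacb* in the catalytic sum and the share of *Adcy7* in the cyclase sum, for each library by group, with bars for the mean and SD (n = 4 mice). The catalytic to regulatory ratio steps down from 0.827 to 0.647 and 0.480, while the *Prkacb* share is 47.3%, 47.3% and 35.2%.

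*Akap12* (ENSMUSG00000038587, chr10:4266380-4359470, + strand) encodes a scaffold, also called gravin, that binds PKA and associates with the B2AR. It was barely detected, with 32, 9, 12 and 10 counts in untreated libraries, 19, 24, 9 and 18 at 1 h and 24, 9, 22 and 23 at 4 h. The groups overlapped throughout. The differences were 0.20 (95% interval -0.68 to 1.08, edgeR adjusted p = 0.802) at 1 h and 0.19 (95% interval -0.68 to 1.06, edgeR adjusted p = 0.751) at 4 h. Without untreated mouse 1, the highest library, they were 0.67 (edgeR adjusted p = 0.331) and 0.66 (edgeR adjusted p = 0.237). Both intervals run from -0.68 to past 1, and changes inside them were not detectable at this depth.

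Around these genes, 74 further genes of the pathway were listed by role, of which 42 had enough counts to be tested. At 1 h, 8 of them changed (3 higher, 5 lower, 19.0% of those tested), and at 4 h, 19 changed (6 higher, 13 lower, 45.2%), against 20.1% and 40% of all genes. With the mouse as a block, 13 of the 42 changed at 1 h, and over all genes the count also grew, from 2493 to 3348 of 12386. Their median log2 fold change was -0.004 at 1 h and -0.12 at 4 h. Gs-coupled receptors had the most changes at 1 h, 5 of 9 tested (2 higher, 3 lower), with 6 of 9 at 4 h. All counts per list are from the fit without the mouse as a block; with it, the calls at 1 h went from 5 to 6 receptors, 2 to 3 AKAPs, 1 to 3 G protein genes and 0 to 1 of the PKA subunits and inhibitors. At 4 h the block raised the total from 19 to 23 of 42, with receptors going from 6 to 7, AKAPs from 5 to 7 and G protein genes from 5 to 6, while over all genes it raised the calls from 4958 to 5870 of 12386. *Adora2b*, a Gs-coupled adenosine receptor, rose from 34.9 ± 8.68 normalized counts (SD, n = 4) to 973 ± 75.4 at 1 h (4.78, SE 0.14, edgeR adjusted p = 5.52e-12). *Calcrl*, the receptor for calcitonin gene-related peptide and adrenomedullin, fell from 788 ± 60.1 to 246 ± 27.0 at 4 h (-1.68, SE 0.08, edgeR adjusted p = 1.14e-09). *Ptger4*, a prostaglandin E2 receptor, fell from 727 ± 147 to 145 ± 16.6 at 1 h (-2.33, SE 0.16, edgeR adjusted p = 4.08e-08) and was at 142 ± 24.2 at 4 h (-2.35, SE 0.16, edgeR adjusted p = 2.05e-08). *Ptger2*, another receptor for prostaglandin E2 and named here after its values were seen, fell at 1 h (-1.38, SE 0.17, edgeR adjusted p = 3.55e-05) and did not pass the test at 4 h (0.30, SE 0.16, edgeR adjusted p = 0.168), where it passed as higher with the mouse as a block (0.31, edgeR adjusted p = 0.0327). Gs-coupled receptor mRNA thus moved in both directions.

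Of the AKAPs other than *Akap12*, 11 of 20 were tested; 2 fell at 1 h, and at 4 h 2 rose and 3 fell. These are 18.2% and 45.5% of those tested, beside 20.1% and 40% of all genes. *Akap10*, a dual-specificity AKAP of mitochondria, fell from 2016 ± 125 normalized counts to 899 ± 55.4 at 1 h (log2 fold change -1.17, SE 0.06, edgeR adjusted p = 1.99e-09) and 849 ± 33.9 at 4 h (-1.25, SE 0.06, edgeR adjusted p = 8.10e-10), with all 8 treated libraries below the 4 untreated ones. *Akap13*, which is also a RhoA exchange factor, fell at 1 h (log2 fold change -0.40, SE 0.08, edgeR adjusted p = 0.00172) and fell further at 4 h (-0.91, SE 0.08, edgeR adjusted p = 3.37e-07). *Arfgef2*, an Arf exchange factor with AKAP motifs, was lower at 4 h (-0.33, SE 0.07, edgeR adjusted p = 0.00199).

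Of 4 other PKA subunits and inhibitors tested, none changed at 1 h and 2 fell at 4 h, where 40% of all genes changed (20.4% lower). *Pkib* encodes PKI beta, a small protein that binds and inhibits free catalytic subunits. It held 301.3, 301.5, 317 and 214 normalized counts in untreated libraries, 263, 211, 264 and 229 at 1 h and 56.3, 31.3, 37.0 and 50.7 at 4 h. The 4 h libraries were far below the rest, with a 6.44-fold fall (log2 fold change -2.69, SE 0.18, edgeR adjusted p = 2.34e-08). *Prkx*, a kinase related to C alpha, fell from 1952 ± 80.9 normalized counts to 1429.9 ± 160 at 4 h (-0.45, SE 0.07, edgeR adjusted p = 0.000161).

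Of 15 other G protein genes tested, 1 rose at 1 h, and at 4 h 2 rose and 3 fell, shares of 6.67% and 33.3% beside 20.1% and 40% of all genes. *Gng4*, a gamma subunit, held 0 to 7 counts in untreated libraries, 7 to 21 at 1 h and 132 to 257 at 4 h. It missed the threshold at 1 h (edgeR adjusted p = 0.0550) and passed it with the mouse as a block (edgeR adjusted p = 0.00426). Its fitted log2 fold change of 5.32 at 4 h (SE 0.45, edgeR adjusted p = 2.71e-07) rests on untreated counts near 0. *Gnb4*, a beta subunit, rose at 1 h (0.39, SE 0.08, edgeR adjusted p = 0.00304) and stayed higher at 4 h (0.41, SE 0.08, edgeR adjusted p = 0.000943). *Gng12*, another gamma subunit, fell at 4 h (-0.51, SE 0.06, edgeR adjusted p = 3.80e-06). In the list of other adenylyl cyclase genes, 3 of 9 were tested and 1 changed, *Cap1*, which is named for binding cyclase in yeast and in mammals acts mainly on actin. It fell from 15655 ± 1073 to 9575 ± 877 normalized counts at 4 h (-0.71, SE 0.08, edgeR adjusted p = 3.91e-06).

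**Figure D4:**
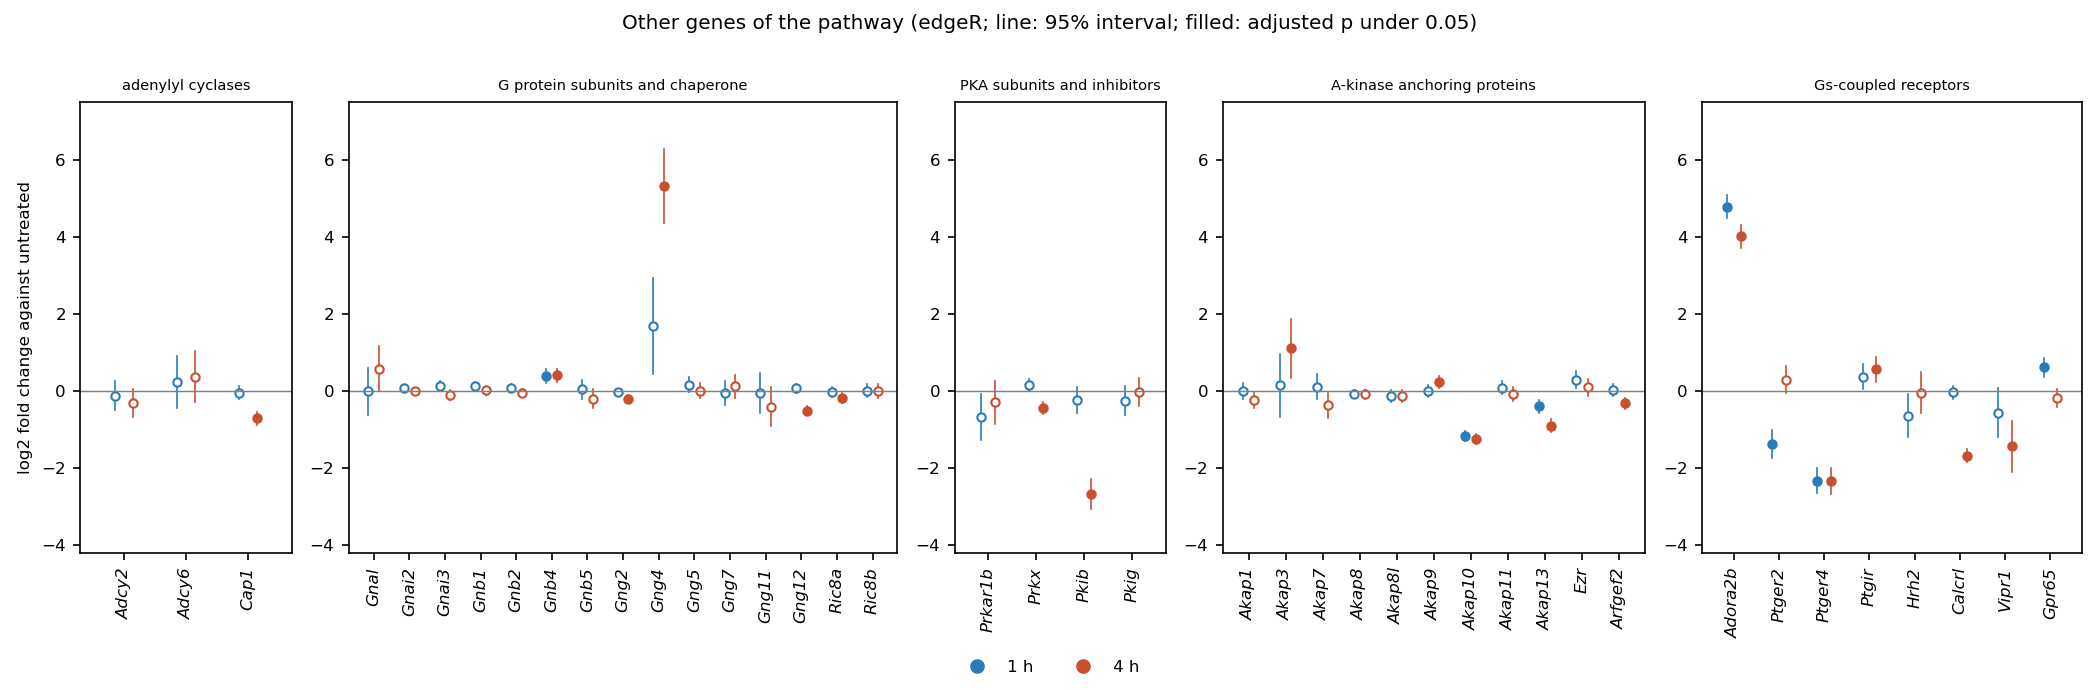
Log2 fold changes at 1 h and 4 h against untreated BMDMs for other pathway genes, grouped by role, 1 point per gene and time, with lines for 95% confidence intervals and filled points for an adjusted p under 0.05 in edgeR's test. *Adora2b* (4.78 at 1 h) and *Gng4* (5.32 at 4 h) lie highest, and *Pkib* (-2.69 at 4 h) lies lowest.

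To find genes with a similar course, the root mean square difference of centred log2 normalized counts over the 12 libraries was computed for 10290 genes against *Prkar2a* and *Adcy9*, which had the largest changes at 1 h and at 4 h. Nearest to *Prkar2a* were *Arnt* (0.101), *Lats2* (0.113) and *Itprid2* (0.115), with log2 fold changes of 0.82, 0.75 and 0.83 at 1 h and 0.45, 0.51 and 0.51 at 4 h. These genes encode a bHLH-PAS transcription factor, a Hippo pathway kinase and a protein with an inositol trisphosphate receptor-interacting domain. Nearest to *Adcy9* were *Fyb* (0.0963), *Mertk* (0.113) and *Igf1* (0.116), which encode an adapter of immune cells, a receptor for the uptake of apoptotic cells and a growth factor. Their log2 fold changes were -0.01, -0.20 and 0.02 at 1 h and -1.24, -1.51 and -1.34 at 4 h. The likeness is a description over 12 libraries.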

How the data were processed

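RNA of 12 BMDM libraries (4 mice, 3 groups) was measured by stranded, single-end mRNA sequencing. According to the submitters' processing notes and the methods, the authors mapped reads to GRCm38 with TopHat2 2.0.11, counted them per gene with HTSeq 0.8.0 and deposited raw counts without normalization; whether counting used strand, and which annotation release, is not given in the sources used here. Symbols and coordinates were taken from GENCODE M21, to which 53274 of 53379 genes were matched.

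From the deposited counts, edgeR 4.0.16 in R 4.3.3 was run with filterByExpr on the 3 groups, TMM scaling and the quasi-likelihood test in 1 fit over the 12 libraries with no covariate. Where the methods name limma on vsn-scaled counts, a count test was used here. Benjamini-Hochberg adjustment was made over 12386 genes for each contrast, with a threshold of 0.05. RPKM used the union of exon bases per gene and the TMM-scaled library size. The biological coefficient of variation was 0.112. By the labels a shared number marks a shared mouse: deviations of such libraries from the group means had Pearson's r of 0.292 to 0.563 over 12386 genes (12 pairs), and other pairs -0.297 to 0.0796 (36 pairs). Chi-square per degree of freedom between replicates was 9.66 to 20.1, above counting error. All 12 libraries were used.

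The 10 genes and the lists of other genes were chosen with earlier results of these data known. Named beyond the 10 were, per list, at most 3 changed genes with the smallest p, plus *Ptger2*, named after its values were seen. Results of 2 listed genes are not reported here. Alternatives were DESeq2 1.42.0, limma-voom (limma 3.58.1), RLE scaling, library size only, no low-count filter, a mean count of at least 50, the mouse as a block, a fit of only the groups compared, and each library left out. The scripts were tested on simulated data. Promoter windows are RefSeq's for GRCm38.p6.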

Additional observations from a re-analysis of the deposited data

Results flagged for a closer look

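Of 30 groups of 4 libraries examined (10 genes, 3 groups), 2 held a library whose gap to the others exceeded Dixon's 95% limit, where chance gives 1.5. *Prkar2a* at 1 h was 2492 normalized counts in mouse 2, against 1943 to 2000.4 in the other 3 mice. *Akap12* in untreated mouse 1 was 27.7 normalized counts, against 10.8 to 12.1 in the other mice. Without that library the *Akap12* log2 fold change was 0.67 at 1 h (edgeR adjusted p = 0.331) and 0.66 at 4 h (edgeR adjusted p = 0.237), instead of 0.20 and 0.19, and it passed the test in neither fit.

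For 7 genes the effect at 4 h differed from that at 1 h by edgeR's test of 4 h against 1 h, as it did for 38.5% of all genes tested. On the log2 scale the effect was lower at 4 h for *Adcy9* (-1.36), *Adcy3* (-0.82), *Prkacb* (-0.60), *Prkar2a* (-0.37) and *Gnas* (-0.17), and higher for *Prkar2b* (0.53) and *Prkar1a* (0.33). The adjusted p was largest for *Gnas* (0.0433), and the other 6 ranged from 3.06e-08 to 0.00381.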

How the results depend on the processing

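Of 30 log2 fold changes (10 genes in 3 comparisons), 16 passed the test, and 14 of these kept their direction and passed under every alternative run. The exceptions were *Gnas* between 4 h and 1 h and *Prkaca* at 4 h, whose lost calls stand in the report; *Gnas* also missed the threshold between 4 h and 1 h with no filter on low counts (edgeR adjusted p = 0.0968) and with only those groups fitted (0.0625). The cause was not tested. *Prkaca* between 4 h and 1 h passed with library size only (0.22, adjusted p = 0.00220), limma-voom (adjusted p = 0.0490) and without mouse 4 at 4 h (adjusted p = 0.0428). With the replicate block, the mouse as a block, *Gnas* passed at 4 h and *Prkaca* between the time points, *Akap12* between 4 h and 1 h was 0.00651 instead of -0.01, and 13 other pathway genes instead of 8 passed at 1 h, where 3348 instead of 2493 of all 12386 genes did; it changed no other call of the 10 genes. Changes of sign were limited to genes that did not pass. With library size only, which moved the median of all genes to -0.07 at 1 h and 0.10 between 4 h and 1 h, *Gnas* (-0.00376), *Adcy7* (-0.0163), *Prkaca* (-0.0360) and *Prkacb* (-0.0376) turned at 1 h and *Akap12* (0.0856) between 4 h and 1 h. With limma-voom, *Adcy9* at 1 h was 0.00229 and *Akap12* between 4 h and 1 h 0.0231. Over fits that left out 1 library, *Adcy9* at 1 h ranged from -0.0755 to 0.0534, *Akap12* at 1 h from -0.0279 to 0.67 and *Akap12* between 4 h and 1 h from -0.26 to 0.22. With a mean count of at least 50, *Akap12* was not tested; its depth limits what can be said of it. P-values of the main fit rest on the spread of libraries within groups, with no term for the mouse, over 4 mice of 1 experiment.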
